A study of Aspergillus nidulans with 12 samples.

Results

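The prn cluster of the filamentous fungus Aspergillus nidulans holds 5 genes for the use of proline as a source of nitrogen and carbon. Their transcripts were followed by RNA-Seq in mycelium of the mutants kaeA19 and kaeA25 and of their controls. The members were taken by gene ID from 2 deposited comparison tables and are AN1729 (prnA), AN1730 (prnX), AN1731 (prnD), AN1732 (prnB) and AN1733 (prnC). They are 5 of the 7729 genes listed in each table. All 5 passed the limit on low means above which the authors' tables give an adjusted p-value, and such genes are called tested here.

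The gene kaeA (AN6569) codes for a subunit of the KEOPS complex, which takes part in a tRNA modification that is itself found in all domains of life. Each mutant allele is a short deletion that keeps the reading frame. Each allele was studied in 1 strain, with 3 biological replicates per strain and 12 libraries in all. The control wt4 (proA6, pabaA9, biA1) served for kaeA19, and the control wt5 (proA6, adF9, yA2, phenA2) served for kaeA25, which has the same markers as wt5. For kaeA19 the sources differ on the markers: the labels give pabaA9 with a biA allele numbered differently in each library, and the study's methods give pabaA12 and biA1. All 4 strains, controls included, therefore carry proA6, a mutation that makes the fungus require proline, and mutations in kaeA were first isolated because they relieve that need. The cultures were grown in liquid minimal medium with nitrate and glucose. According to the study the medium held no arginine as an inducer, and the sources used here do not say whether proline was added. The mutant kaeA19 and its control therefore differ from kaeA25 and its control in markers as well as in allele, and these cannot be told apart when the 2 comparisons are set against each other.

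In A. nidulans proline enters the cell through the permease PrnB. The proline oxidase PrnD turns it into pyrroline-5-carboxylate, and the dehydrogenase PrnC turns that into glutamate. PrnA is the activator specific to the pathway and acts when proline is present as the inducer. Full repression of the cluster is known to need both a preferred nitrogen source and glucose. The general nitrogen regulator AreA, a GATA factor, and the repressor CreA take part in the control of the cluster. The product of prnX has no settled role in proline use.

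The 5 genes did not move as a unit in kaeA25. In kaeA19 prnX lay apart from prnA and prnB, by intervals not adjusted over pairs. The errors of prnD, prnB and prnC were too wide there to tell whether these genes moved together. In kaeA25 the transcript of prnC stood at 209% of its control (95% interval 179 to 245%), and that of prnD at 187% (139 to 251%), while prnA, prnB and prnX passed neither threshold. In kaeA19 the transcript of prnX stood at 49.9% of its control (35.7 to 69.8%), and no other member passed the test. For prnC the effects of the 2 alleles differed by 1.79 on the log2 scale. The regulator gene prnA and the permease gene prnB passed no test in either mutant.

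The tables hold no value per library, so the level of a gene in each strain was worked out from the authors' mean over the 6 libraries of a comparison and their fold change. A level is a mean of normalized fragments per library, is not divided by gene length and has no spread of its own. The tables were normalized separately, and levels set across them were not tested. Levels of different genes are therefore not ranked, and where shares or ratios of fragments between members are given, only their change between strains is read. For prnA the level was 1294 in wt4, 1289 in kaeA19, 1221 in wt5 and 1479 in kaeA25. For prnX it was 2492 in wt4, 1244 in kaeA19, 2108 in wt5 and 1662 in kaeA25. Both controls thus lay above both mutants for prnX.

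For prnD the level was 48435 in wt4, 32053 in kaeA19, 48397 in wt5 and 90467 in kaeA25. For prnC it was 41913 in wt4, 25436 in kaeA19, 46947 in wt5 and 98271 in kaeA25. The order of the strains was the same for both enzyme genes up to the near-equal controls, with kaeA19 lowest and kaeA25 highest. For prnB the level was 8811 in wt4, 12195 in kaeA19, 8083 in wt5 and 8925 in kaeA25, so that here kaeA19 was highest. Only strains of the same table were tested against each other: kaeA25 and wt5 were apart beyond their error for prnC and prnD, and kaeA19 and wt4 for prnX. The levels of wt5 over wt4 lay between -0.24 (prnX) and 0.16 (prnC) on the log2 scale, and those of kaeA25 over kaeA19 between -0.45 (prnB) and 1.95 (prnC). With each level divided by the median level of tested genes in its strain, wt5 over wt4 lay between -0.47 (prnX) and -0.07 (prnC), so that the sign for prnC turned, and kaeA25 over kaeA19 between -0.65 (prnB) and 1.75 (prnC).

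**Figure D1:**
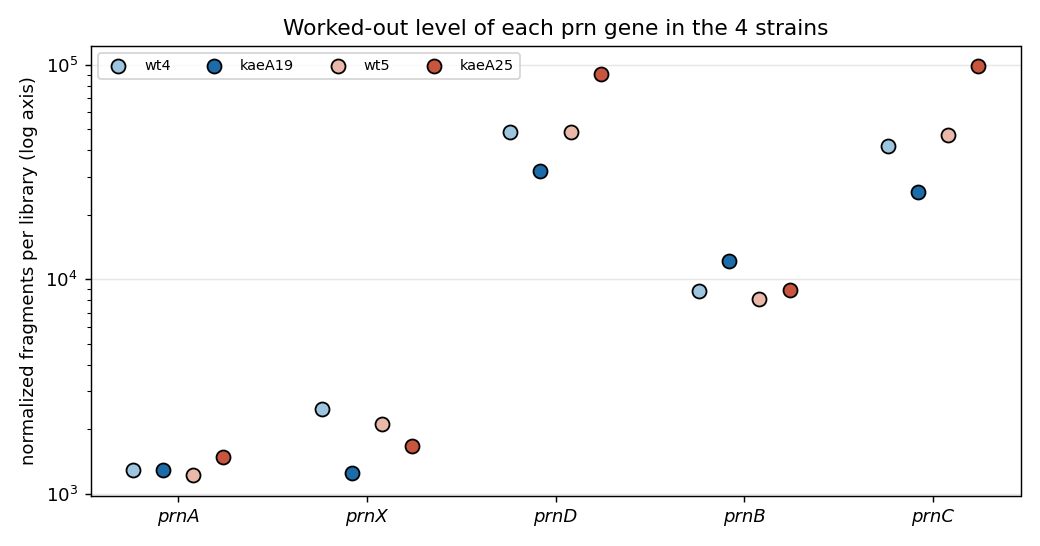
The vertical log axis gives the level of each prn gene in normalized fragments per library, worked out from the deposited mean and fold change, with 1 point per strain and no error bar because no value per library was used; genes are not scaled by length, so heights compare strains within a gene. For prnC the point of kaeA25 is at 98271 and that of kaeA19 at 25436, with the controls at 46947 and 41913 between them.

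For the activator gene prnA, the authors' deposited table listed a log2 fold change of -0.01 ± 0.16 (SE) for kaeA19, with a Benjamini-Hochberg adjusted p of 0.985 over all tested genes. For kaeA25 it was 0.28 ± 0.22 (adjusted p = 0.488). The 95% intervals of prnA allowed a level of 80.7 to 123% of the control in kaeA19 and of 89.6 to 164% in kaeA25. A doubling or a halving of the activator's transcript lies outside both intervals. These p-values come from a normal test that sets each log2 fold change against its deposited standard error. The replicates of each allele come from a single strain, so the test does not cover differences between strains with the same allele.

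The permease gene prnB stood at 0.47 ± 0.46 in kaeA19 (adjusted p = 0.499) and at 0.14 ± 0.21 in kaeA25 (adjusted p = 0.744). Its intervals were 73.9 to 259% of the control in kaeA19 and 82.5 to 148% in kaeA25. The kaeA19 table thus leaves room for a doubling of prnB.

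The proline oxidase gene prnD stood at -0.60 ± 0.50 in kaeA19 (adjusted p = 0.412), with an interval of 33.4 to 131% of wt4. In kaeA25 it stood at 0.90 ± 0.22 (adjusted p = 0.000816). That estimate passed the adjusted p of 0.05 but, at 1.87-fold, not the fold of 2 that the study's methods also require for a change. In kaeA25 the share of tested genes that were higher by the adjusted p alone was 6.73%, and 2 of the 5 members, prnD and prnC, were among them.

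The dehydrogenase gene prnC stood at -0.72 ± 0.47 in kaeA19 (adjusted p = 0.258), with an interval of 32.2 to 114% of wt4. In kaeA25 it rose by 1.07 ± 0.11 (adjusted p = 5.09e-18) and passed both thresholds. It was the only member to do so, 1 of 5, in a comparison where 1.67% of tested genes were called higher. Of the 5451 genes tested there, 79 had a higher fold change than prnC. No member was called lower in kaeA25. The share of tested genes called lower there is not given, so this absence is not read as a result about the members.

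For prnX the kaeA19 table gave -1.002 ± 0.247 (adjusted p = 0.000357), and the gene fell just past the fold of 2. It was again 1 of 5 members, where 2.15% of tested genes were called lower. It was also the only member to pass the adjusted p alone. The share of tested genes that pass it in kaeA19 is not given here, so that count does not set the members apart. No member was called higher in kaeA19, and the share of tested genes called higher there is not given either. The call on prnX depends on the scale: after centring on the median of all tested genes its log2 fold change was -0.97, and it no longer passed the fold threshold. The adjusted p was kept as deposited and was not worked out again after centring. In kaeA25 prnX stood at -0.34 ± 0.21 (adjusted p = 0.329), with an interval of 59.2 to 105% of wt5.

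**Figure D2:**
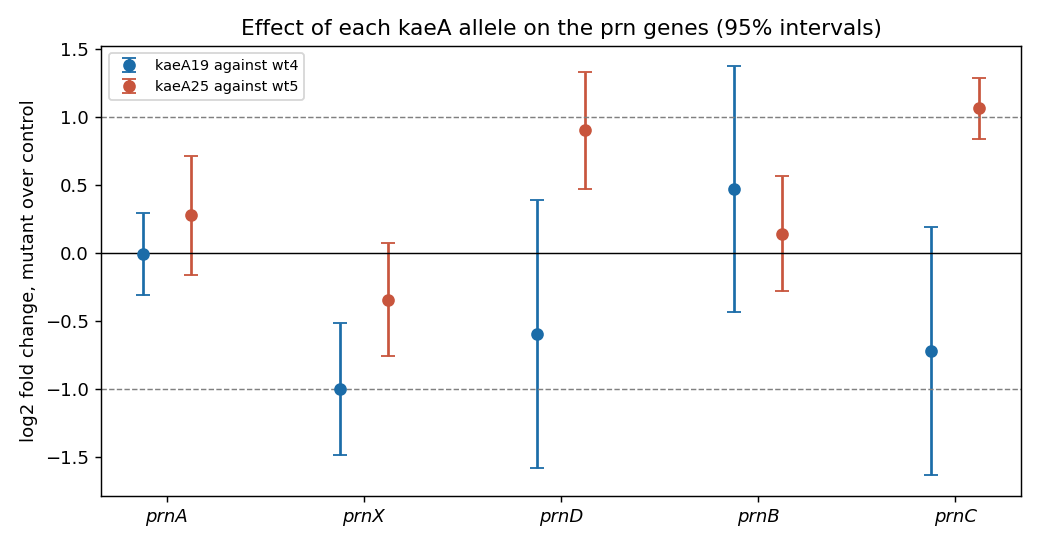
The vertical axis gives the log2 fold change of each prn gene, mutant over control, from the deposited tables, with points for kaeA19 against wt4 and kaeA25 against wt5, bars for 95% intervals, and dashed lines at a fold of 2. In kaeA25 the intervals of prnD and prnC lie above 0 (estimates 0.90 and 1.07), and in kaeA19 only that of prnX, at -1.002, lies clear of 0.

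Over the 5 members the median log2 fold change was -0.60 in kaeA19, beside -0.03 over all tested genes, and 0.28 in kaeA25, beside 0.02. With 5 members that range from -1.002 to 0.47 in kaeA19 and from -0.34 to 1.07 in kaeA25, these medians describe no common shift. The deposited fold changes may have been drawn toward 0, which is not stated. Sizes of effects would then be understated, and the levels of a mutant and its control would lie too close together. Differences between effects could then be too small or too large, since the pull need not be equal for all genes.

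The members differed much in precision. In the kaeA19 comparison the standard errors of prnD, prnB and prnC were 0.50, 0.46 and 0.47, while the median over all tested genes was 0.177 and the largest 0.505. Of the tested genes with a mean at least as high as that of prnD, 0 had a larger standard error. For prnC 3 did, and for prnB 13 did. Over all tested genes, whatever their mean, 27 had a larger standard error than prnD, 560 a larger one than prnC and 573 a larger one than prnB, nearly all of them with lower means. The median standard error of genes with at least the mean of prnC was 0.204, so low coverage does not accompany these errors. In the same libraries the standard error of prnA was 0.16, near the median of 0.148 of genes with at least its mean. That of prnX was 0.25, beside such a median of 0.146, and 267 of 2391 such genes had a larger one. The flanking gene AN1734, next to prnC, had 0.50, and 73 of 5695 genes with at least its mean had a larger one. The errors of prnD, prnB and prnC were thus the widest of the cluster, but wide errors were not confined to them.

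In the kaeA25 comparison the picture was different for the same 3 genes. The standard error was 0.22 for prnD, 0.21 for prnB and 0.11 for prnC, beside a median of 0.209 over all tested genes. Of the 5451 genes tested, 5298 had a larger standard error than prnC. Which libraries of kaeA19 or wt4 were apart for prnD, prnB and prnC cannot be told from the tables. A change by 2-fold in either direction lay within the interval of prnD in kaeA19 only downward, and the same held for prnC, whereas for prnB it lay within only upward.

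**Figure D3:**
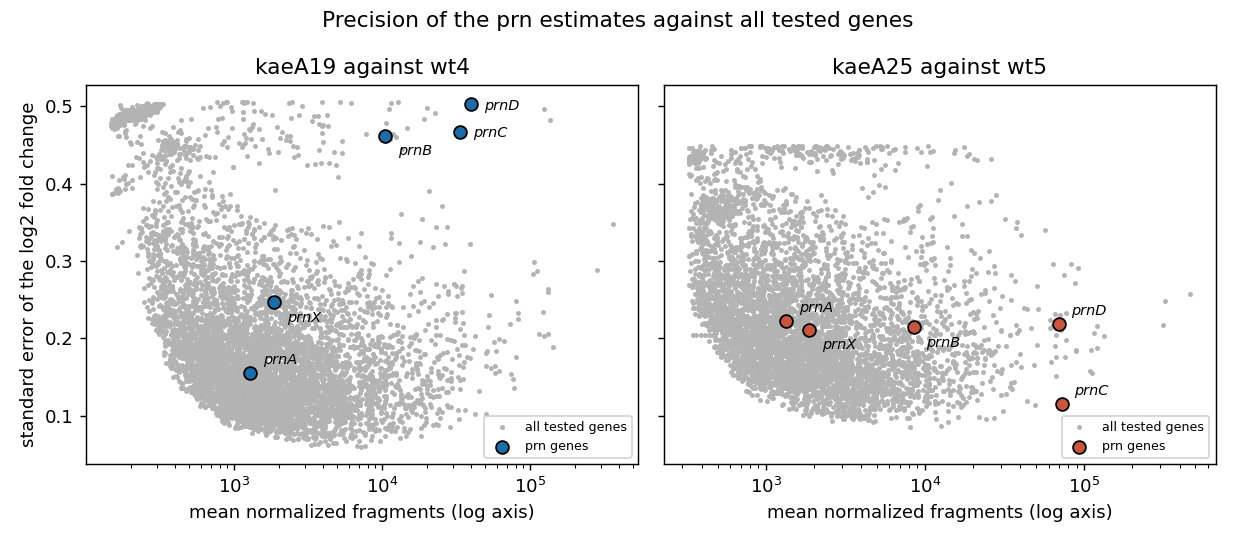
Each panel plots the standard error of the log2 fold change (vertical axis) against the mean normalized fragments (horizontal log axis), with grey points for all tested genes and coloured points for the prn genes. In kaeA19 against wt4, prnD, prnB and prnC sit near the top of the cloud at 0.50, 0.46 and 0.47, and in kaeA25 against wt5 prnC sits near the bottom at 0.11.

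Whether the alleles acted differently on a member was tested on the difference itself, as kaeA25 effect minus kaeA19 effect, with adjustment over the 5365 genes tested in both tables. For prnC the difference was 1.79 ± 0.48 (95% interval 0.84 to 2.73), a ratio of 3.45 between the 2 fold changes, with an adjusted p of 0.00519. It was 1 of 5 members past the threshold, where 9.99% of all genes tested in both passed. Only 19 of these genes had a larger positive difference than prnC. With the standard errors of each table multiplied by the spread of its scores, the adjusted p of prnC was 0.999 and the call was lost. That spread was taken over all tested genes, changed ones included, and all 5 members then had this adjusted p.

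For prnD the difference was 1.498 ± 0.548 (0.42 to 2.57), with an adjusted p of 0.0590, which missed the threshold. For prnX the difference was 0.66 ± 0.33 (adjusted p = 0.208), for prnA 0.28 ± 0.27 (adjusted p = 0.631) and for prnB -0.33 ± 0.51 (adjusted p = 0.808). The interval of prnB, -1.32 to 0.67, was too wide to call the alleles alike. 4 of the 5 estimates were positive and that of prnB negative, beside a median of 0.04 over all genes tested in both.

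**Figure D4:**
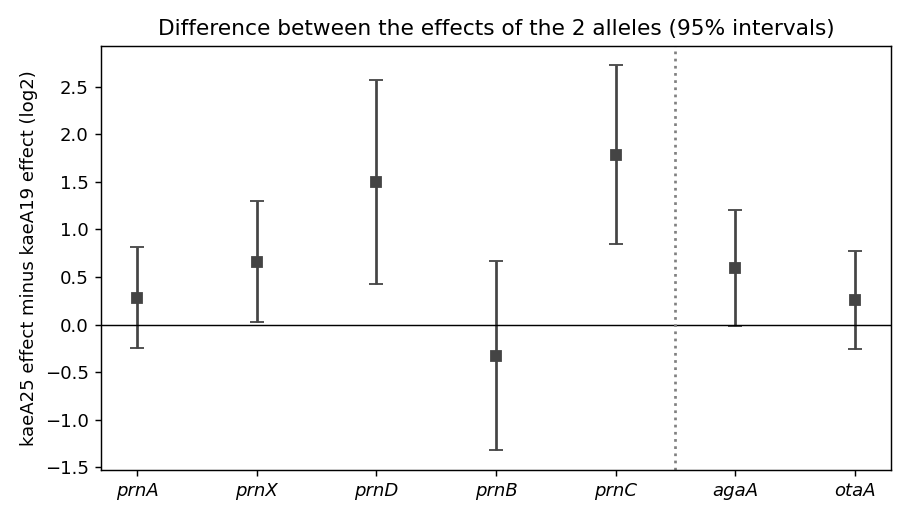
The vertical axis gives the kaeA25 effect minus the kaeA19 effect on the log2 scale with 95% intervals, for the 5 prn genes and, right of the dotted line, for agaA and otaA. The prnC difference is 1.79 and that of prnD 1.498, while agaA and otaA are at 0.60 and 0.26 with intervals that include 0.

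The genes of the cluster were then compared with one another within each mutant, as the difference between the log2 fold changes of each of 10 pairs. The errors of genes measured in the same libraries are correlated to an unknown extent, so the widest interval that any correlation allows was used, with the standard errors added. In kaeA25, 4 of 10 pairs were apart. The log2 fold change of prnC was above that of prnA by 0.79 (0.13 to 1.45), above that of prnX by 1.41 (0.77 to 2.05) and above that of prnB by 0.92 (0.28 to 1.57), and that of prnD was above that of prnX by 1.25 (0.40 to 2.09). The 2 enzyme genes were 0.16 apart (-0.49 to 0.82). In kaeA19, 2 of 10 pairs were apart: prnX minus prnA was -0.996 (-1.78 to -0.21) and prnB minus prnX was 1.47 (0.08 to 2.86). Each of these pairs holds prnX. The intervals of neither mutant were adjusted over the 10 pairs.

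These differences appear as a change in the make-up of the cluster's transcripts. The fragments of prnB equalled 21.0% of those of prnC in wt4 and 47.9% in kaeA19, against 17.2% in wt5 and 9.08% in kaeA25. Gene length cancels when this ratio is compared between strains. In kaeA19 the shift was within its error, since the interval of prnC minus prnB was -3.01 to 0.63. The ratio of prnD to prnC was 1.16 in wt4, 1.26 in kaeA19, 1.03 in wt5 and 0.921 in kaeA25.

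Fragments of the 5 members together were 0.450% of all listed fragments in wt4 and 0.332% in kaeA19, and 0.475% in wt5 and 0.933% in kaeA25. Of the members' fragments, prnD and prnC together gave 87.8% in wt4, 79.6% in kaeA19, 89.3% in wt5 and 94.0% in kaeA25. The summed share therefore follows these enzyme genes and says little of prnA, prnX or prnB.

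In the RefSeq annotation (assembly ASM1142v1), used for gene order alone, the members lie next to each other on chromosome VII in the order prnA, prnX, prnD, prnB, prnC. Of the 14 other genes in the surrounding window, 9 were listed and the rest were not analysed here. Next to prnC, AN1734 stood at -0.50 ± 0.50 in kaeA19 (adjusted p = 0.506) and 0.32 ± 0.38 in kaeA25 (adjusted p = 0.664). Next to prnA, AN10232 stood at 0.05 ± 0.31 and -0.46 ± 0.32 (adjusted p = 0.931 and 0.418). Neither direct neighbour of the cluster passed a test.

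In kaeA25 no tested neighbour of the window passed the adjusted p, so prnD and prnC were the only tested genes of the stretch to do so. In kaeA19, 2 neighbours passed it. The share of all tested genes that pass the adjusted p alone is not given there, so this count marks no trait of the region. AN1726, 5 genes before prnA, rose by 2.73 ± 0.24 (adjusted p = 3.96e-28), and AN10230, the third gene beyond prnC, stood at -0.48 ± 0.09 (adjusted p = 3.33e-07), under the fold threshold. AN10229, AN10230, AN10232 and AN10233 were added as neighbours after the gene order had been read and values seen. It is not stated whether fragments were assigned by strand, and transcripts that overlap or run antisense to a member cannot be told apart from it.

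**Figure D5:**
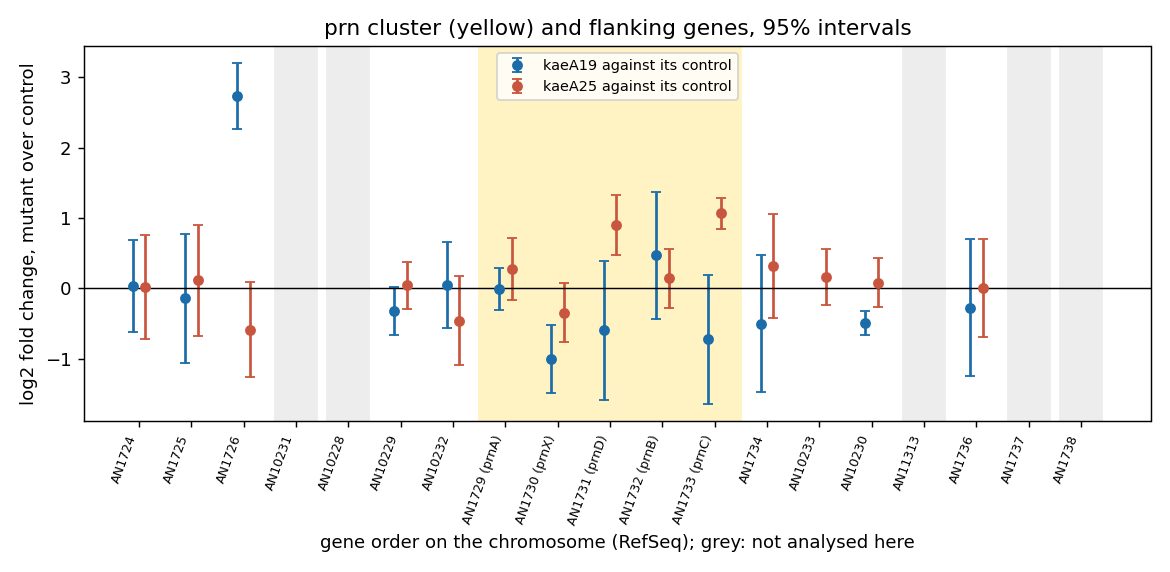
The horizontal axis gives gene order along the chromosome without scale and the vertical axis the log2 fold change, mutant over control, with 95% intervals; yellow marks the prn cluster, grey marks genes not analysed here, and AN10233 has no kaeA19 value. AN1726 stands at 2.73 in kaeA19, while within the cluster prnD and prnC in kaeA25 (0.90 and 1.07) and prnX in kaeA19 (-1.002) are clear of 0.

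Pyrroline-5-carboxylate, the product of PrnD, is also reached from arginine through arginase (agaA, AN2901) and ornithine aminotransferase (otaA, AN1810). In kaeA19, agaA rose by 3.74 ± 0.25 and otaA by 3.57 ± 0.21 (adjusted p = 4.52e-50 and 2.90e-65). In kaeA25 they rose by 4.34 ± 0.19 and 3.83 ± 0.16 (adjusted p = 2.61e-113 and 5.53e-116). Both genes of this arginine route to the substrate of PrnC were therefore up in each mutant. Their differences between alleles, 0.60 and 0.26, did not pass (adjusted p = 0.244 and 0.657). The transcript of prnC, whose enzyme uses that substrate, passed the test in kaeA25 alone.

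PrnC yields glutamate, and 4 genes that handle glutamate and ammonium are described by their values. The gene gltA, for glutamate synthase, was called higher in kaeA19 at 1.26 ± 0.29 (adjusted p = 8.81e-05). It stood at -0.60 ± 0.20 in kaeA25 (adjusted p = 0.0242), under the fold threshold. The catabolic glutamate dehydrogenase gene gdhB stood at -0.73 ± 0.29 in kaeA19 (adjusted p = 0.0397), under the fold threshold, and 0.40 ± 0.25 in kaeA25 (adjusted p = 0.333), with a difference of 1.13 ± 0.38 (adjusted p = 0.0364). The estimates of gdhB thus have the signs of those of prnC and prnD. The anabolic dehydrogenase gene gdhA and the glutamine synthetase gene glnA passed no test in either mutant.

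Of 6 wide-domain regulator genes, 1 was called lower in kaeA19, where 2.15% of tested genes were called lower, and 0 were called in kaeA25. That gene, nmrA, encodes the co-repressor of AreA and stood at -1.27 ± 0.21 in kaeA19 (adjusted p = 1.16e-08) and at 0.62 ± 0.15 in kaeA25 (adjusted p = 0.000955), where it passed the adjusted p but not the fold. Its difference between alleles was 1.89 ± 0.26 (adjusted p = 7.81e-11), beside 1.79 for prnC. The gene for AreA itself stood at 0.42 ± 0.19 (adjusted p = 0.0759) and -0.24 ± 0.15 (adjusted p = 0.333). The repressor gene creA stood at 0.62 ± 0.22 in kaeA19 (adjusted p = 0.0200), under the fold threshold, and at 0.23 ± 0.32 in kaeA25 (adjusted p = 0.725). The others, areB, tamA and meaB, passed no test. Whether any of these levels bears on the prn genes was not tested.

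The genes whose pair of effects was most like that of prnC were found by the Euclidean distance between log2 fold changes over the 2 comparisons, among the genes tested in both. They were AN7640 (distance 0.20), prnD (0.21) and AN5116 (0.24). By the same measure prnA ranked 858, prnX 3424 and prnB 3837. By these point estimates only prnD, of the 4 other members, was close to prnC. The distance takes no account of errors. In kaeA19 the standard errors of prnC and prnD were 0.47 and 0.50, and that of prnB was 0.46. The places of the members are therefore not resolved.

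The targeted gene kaeA stood at -0.54 ± 0.17 in kaeA19 (adjusted p = 0.00754) and 0.33 ± 0.26 in kaeA25 (adjusted p = 0.470), and its level does not check the labels, since the alleles are short deletions. Of 5 markers of asexual sporulation, 4 were listed, with means of 25.9 to 214 normalized fragments for kaeA19 against wt4 and of 51.8 to 221 for kaeA25 against wt5, and none of the 2 that were tested, in the kaeA19 table only, passed. Genes of vegetative growth (actA, benA, gpdA) had means from 25345 to 131609, and none of the 3 was called in either comparison.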

How the data were processed

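Total RNA of 4 strains was depleted of ribosomal RNA and sequenced in pairs, with 3 libraries per strain. According to the study's methods and the submitters' processing notes, reads were checked with FastQC and aligned to the FGSC A4 genome from AspGD (TopHat 2, Bowtie2), and fragments of properly oriented pairs were counted per gene. edgeR is named there, although the headers are those of a DESeq2 results table.

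Deposited were 2 comparison tables, 1 per mutant. Their signal column holds the authors' mean of normalized fragments over 6 libraries. The deposited log2 fold change, mutant over control, has a standard error. The deposited score is their ratio, with which the authors' p-value (2-sided, normal) and adjusted p-value (Benjamini-Hochberg) were recomputed without a difference. Tested genes numbered 6227 for kaeA19 (mean of at least 148) and 5451 for kaeA25 (at least 329). The means summed to 22310300 and 21992800. No values per library were used, so depth per library is unknown and the planned edgeR test on counts was not run.

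A gene was called past a 2-fold change with an adjusted p below 0.05. Levels assume that both strains enter the mean equally. Differences between alleles were tested with a 2-sided normal test over the root of summed squared standard errors, a step tested on simulated data. All intervals are 95% normal intervals. Gene IDs were matched to RefSeq (7332 of 7729). The named genes were the 5 members, their chromosomal neighbours, lists of arginine, glutamate, regulator and nutrient cluster genes, kaeA, the 3 genes most like the member whose effects differed most, and marker genes. Members and lists were chosen with earlier results of these data known. A search for promoter motifs was not run, since no genome was used. Alternatives were other scalings, fold thresholds, limits on the mean, adjustments and standard errors. Python 3.11.15, scipy 1.17.1, numpy 2.4.6, matplotlib 3.10.9 and pandas 2.3.3 were used.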

Additional observations from a re-analysis of the deposited data

Results flagged for a closer look

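The effects of the 2 alleles on prnC differed by 1.79 on the log2 scale (kaeA25 minus kaeA19), with an adjusted p of 0.00519 by the normal test of the difference. The call was lost, with an adjusted p of 0.999, when standard errors were multiplied by the spread of scores, a setting in which every member had that value. The strains of the 2 comparisons also differ in marker mutations, and allele and markers cannot be told apart.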

How the results depend on the processing

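Of 120 alternative values, 107 kept their side of the threshold or moved by less than their error, 6 no longer passed, 5 passed in addition, and 2 turned sign: prnA in kaeA19, which passed no test, went from -0.0058 to 0.0253 after centring on the median of all tested genes and to 0.0574 on that of the tested genes of higher mean. Some of the 107 could not change sides, since centring and other fold thresholds kept the deposited adjusted p within each mutant. The 107 also include the levels set across the tables, which have no error of their own. Of these levels, 2 turned sign when divided by the median level of tested genes, prnC of wt5 over wt4 (0.16 to -0.07) and prnA of kaeA25 over kaeA19 (0.20 to -0.0018). In kaeA19 the count of members called went from 1 to 0 after centring on the median of all tested genes (prnX at -0.97) or on that of the tested genes of higher mean (prnX at -0.94). In kaeA25 it went from 1 to 2, by prnD, with no fold threshold and with a fold threshold of 1.5. The number of members whose effects differed between alleles went from 1 to 0 when standard errors were multiplied by the spread of scores, 2.15 for kaeA19 and 1.59 for kaeA25. Dropping the limit on the mean, keeping genes of higher mean and a Benjamini-Yekutieli adjustment changed no call of a member where they were run. With independent errors, an alternative chosen like the pair intervals after seeing the data, 7 in place of 4 pairs of members were apart in kaeA25. No paired analysis was possible because the tables hold no value per library, and leaving out single libraries was not run for the same reason. The precision of prnD, prnB and prnC in kaeA19 limits what these data can show of them.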

Other observations

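The spread of log2 fold changes within a cluster was also taken for 2 other gene clusters of nutrient use, as a description with no test. For the nitrate genes crnA, niiA and niaD (transporter, nitrite reductase and nitrate reductase) the log2 fold changes were 1.00, 0.79 and 1.12 in kaeA19 and -0.77, -1.01 and -0.69 in kaeA25, a range of 0.33 in each comparison. For the 5 prn genes the range was 1.47 in kaeA19 and 1.41 in kaeA25. A range widens with the number of genes and with their errors. In kaeA19 the standard errors reached 0.50 among the prn genes and 0.30 among the nitrate genes. The ranges therefore do not show which genes moved more as a unit. The differences between alleles of crnA, niiA and niaD, -1.78, -1.80 and -1.80 (adjusted p = 0.00396, 0.00237 and 0.000183), were opposite in sign to that of prnC. For the phenylalanine catabolism genes maiA, fahA, hmgA and hpdA the range was 0.31 in kaeA19, where none passed the test, and 1.84 in kaeA25, wider than that of the prn genes, where fahA (2.11), hmgA (1.61) and hpdA (1.69) were called higher and maiA stood at 0.26. The strains kaeA25 and wt5 both carry phenA2.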
